A study of Nematostella vectensis with 96 samples.

Results

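helt (gene model NVE8679) is a bHLH transcription factor of the HES/HEY group in the starlet sea anemone Nematostella vectensis. It was taken by its identifier, as 1 of 23927 gene models in the count table, and followed through 4 light conditions and 6 time points. The study lists helt among its differentially expressed genes of interest and reported a diurnal pattern in blue and green light from these libraries. Calls for helt given here are therefore not independent evidence of a daily change. HES/HEY proteins (hairy and enhancer of split related) carry a basic helix-loop-helix domain with which they pair and bind DNA, and most are known in bilaterian animals as transcriptional repressors, many of them targets of Notch signalling. In mammals HELT is a neural member of the group, and the related bHLH proteins DEC1 and DEC2 repress clock genes. In the animal circadian clock, bHLH-PAS factors such as CLOCK switch on the genes of their own repressors and of PAR-bZIP factors, which pass the rhythm on to output genes. The role of helt in Nematostella was not measured here.

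Each library was made from 1 whole adult animal after 1 month under a daily cycle of 12 h of colored light (red, green or blue) and darkness, or without any light (DD), and all animals were starved before sampling. Animals were taken every 4 h at Zeitgeber times ZT2, ZT6 and ZT10 of the photoperiod, when the colored lights were on, and ZT14, ZT18 and ZT22 of the scotoperiod, when all animals were in darkness. In DD these names stand only for the same clock hours. There were 4 animals for each of the 24 groups, labelled A to D, and all were sampled over a single day, so that a repeat of a daily cycle was not observed. No white-light group was part of the comparison. The study adjusted the colored lights to like intensities with a light meter, in lux. Energy of the light was not compared here, so color and light energy cannot be told apart. In whole animals, fewer cells that express a gene and less RNA per cell cannot be told apart.

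Of 96 libraries, 93 held at least 100000 counts and were used, with totals from 104048 to 706046. Depth differed between hours of the day. Median totals were 504600 at ZT2, 428300 at ZT6 and 483200 at ZT22, against 297800 at ZT10, 278100 at ZT14 and 275500 at ZT18. The 3 left out were red ZT6 C, DD ZT6 D and DD ZT22 C, so these groups had n = 3. Among those used, 4 stood apart from the other libraries of their group: DD ZT2 A, blue ZT10 D, blue ZT14 B and red ZT2 B. Their counts had the highest chi-square per degree of freedom against the nearest library of the group, 10.7 to 15.92, with 8.118 the next. By mean correlation within the group, others such as red ZT10 D (0.7425) and blue ZT14 D (0.748) lay further out than red ZT2 B (0.774). Levels are counts scaled to a common library total (CPM) on library totals scaled by the TMM method. helt was read at a mean of 17.0 counts per library, from 0 to 94, with 2 libraries at 0 and 14 under 3 counts. Low values are therefore coarse: a count of 0 allows up to 3 counts. Its biological coefficient of variation between animals of a group was 0.423, against a median of 0.265 for the genes tested.

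helt was highest in blue light during the photoperiod, lower in green, lower still in red, and lowest in DD. Over the photoperiod hours the mean level was 144.3 ± 39.7 CPM in blue (SD, n = 12), 75.1 ± 28.5 in green (n = 12), 36.0 ± 30.1 in red (n = 11) and 13.4 ± 10.4 in DD (n = 11). Over the scotoperiod hours these means lay much closer together, at 22.8 ± 16.3 CPM in blue (n = 12), 26.4 ± 13.6 in green (n = 12), 15.3 ± 9.55 in red (n = 12) and 17.3 ± 13.2 in DD (n = 11). This order held for the photoperiod means, whereas over the scotoperiod green had the highest mean and red the lowest. Neighbours in the order were not all separated by the tests given further on. Those tests also did not establish that the daily change differed in size between colors.

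**Figure D1:**
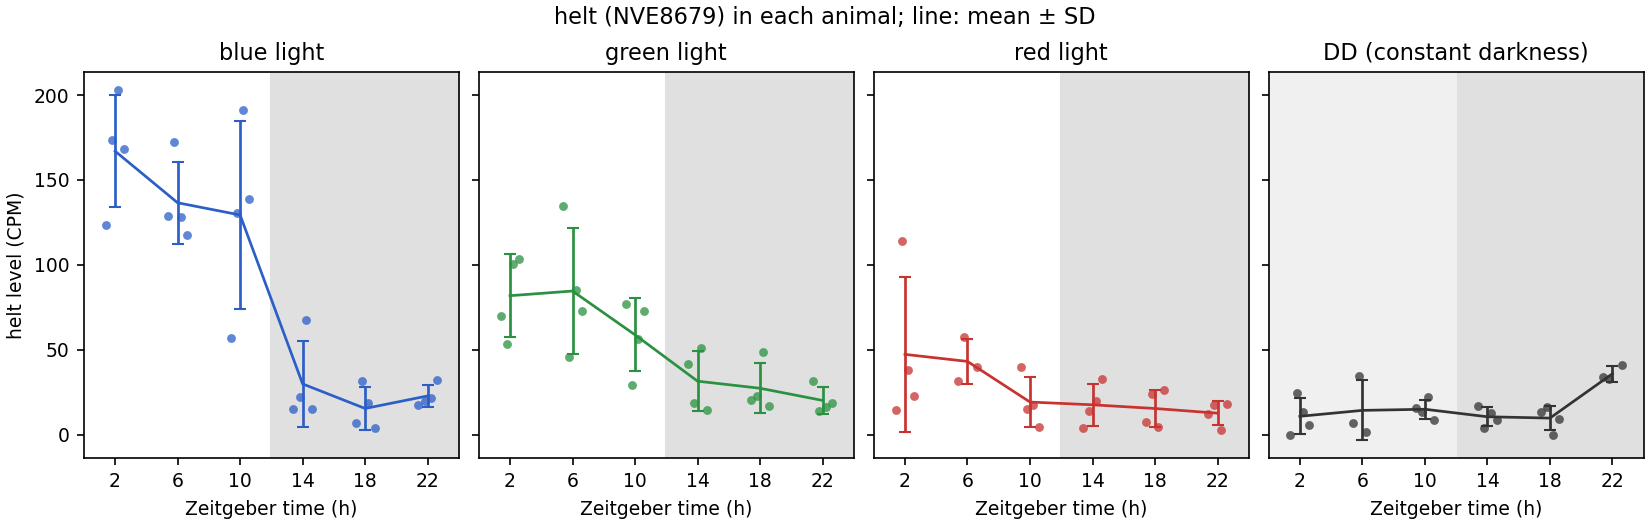
helt level in CPM (linear axis) against Zeitgeber time in hours, 1 panel for each light condition; each point is 1 animal, set slightly apart by replicate letter, and the line joins group means with bars of 1 SD (n = 3 or 4). Dark shading marks ZT12 to ZT24 and light shading the clock hours of the photoperiod in DD; the blue mean falls from 129.4 CPM at ZT10 to 30.0 CPM at ZT14, and the group means of DD stay at or below 36.0 CPM.

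In blue light the 4 animals at ZT2 read 123.3, 173.3, 203.1 and 168.3 CPM. At ZT6 they read 128.6, 172.1, 128.3 and 117.4 CPM, and at ZT10 57.1, 130.7, 191.0 and 138.9 CPM. Only animal A at ZT10 fell below the rest of the photoperiod. After lights-off the animals read 15.2, 22.3, 67.4 and 14.9 CPM at ZT14, with C far above the other 3. They read 6.92, 31.9, 19.0 and 4.18 CPM at ZT18, and 17.50, 19.8, 21.9 and 32.5 CPM at ZT22. Of the 12 photoperiod animals, 11 were above every scotoperiod animal. The values at ZT18 rest on 1 to 10 counts each, and those at ZT14 on 2 to 18 counts each.

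The change from photoperiod to scotoperiod in blue light was tested as the mean of 3 time points minus the mean of the other 3. helt was higher in the photoperiod by 2.65 on the log2 scale (SE 0.326, 95% interval 2.00 to 3.30), a 6.28-fold difference, with an edgeR adjusted p of 3.88e-09. In that contrast 0.104% of the 9597 genes tested were called at 10% FDR, 10 genes in all. A two-sided permutation test of log2 CPM over the animals gave p = 1e-05, the smallest it can give. Here and in the other conditions that test exchanged animals freely across time points. It measures spread between animals, not between days or repeats of the treatment. Each pair of time points 12 h apart was also called. The difference was 2.39 (SE 0.543, adjusted p = 0.0458) for ZT2 against ZT14, where 0.0625% of genes were called. It was 3.09 (SE 0.602, adjusted p = 0.00108) for ZT6 against ZT18, with 0.0521% called, and 2.47 (SE 0.545, adjusted p = 0.0194) for ZT10 against ZT22, with 0.125% called. In all 3 pairs the 4 animals of the photoperiod were above the 4 of the scotoperiod, and the exact permutation p was 0.0286, the smallest that 4 against 4 allows. The first and last of these calls were lost when single animals were left out: for ZT2 against ZT14 the adjusted p was 0.172 without blue ZT2 C, and 0.436, 0.167 and 0.343 without blue ZT14 A, B and D. For ZT10 against ZT22 it was 0.141 without blue ZT10 C, and 0.135 and 0.159 without blue ZT22 A and B. For ZT6 against ZT18 it was 0.134 without all D animals.

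In green light helt was also higher in the photoperiod, with lower group means than in blue at ZT2, ZT6 and ZT10. The animals read 69.97, 53.5, 100.8 and 103.4 CPM at ZT2, 134.8, 46.0, 85.1 and 72.7 CPM at ZT6, and 76.8, 29.3, 56.6 and 72.7 CPM at ZT10. They read 41.8, 18.4, 51.2 and 14.9 CPM at ZT14, 20.7, 23.0, 48.99 and 16.9 CPM at ZT18, and 31.6, 13.9, 16.5 and 18.9 CPM at ZT22. The groups at ZT2 and ZT14 did not overlap, and 0.0313% of genes were called there by edgeR. At ZT6 and ZT18, and at ZT10 and ZT22, 1 photoperiod animal lay within the range of the scotoperiod group. Lack of overlap is a looser measure than an edgeR call. How many genes show it was not counted in any comparison. The photoperiod was higher by 1.50 on the log2 scale (SE 0.299, 95% interval 0.91 to 2.10), or 2.83-fold, with an edgeR adjusted p of 0.00353, in a contrast where 0.479% of genes were called. The permutation p was 4e-05. The call rested in part on the D animals, without which the difference was 1.32 (adjusted p = 0.153). None of the 3 pairs of time points passed, with differences of 1.38, 1.61 and 1.52 and adjusted p-values of 0.745, 0.467 and 1. Their 95% intervals nonetheless lay above 0, with edgeR unadjusted p-values of 0.00791, 0.00287 and 0.00374. Exact permutation p-values for the same pairs were 0.0286, 0.0571 and 0.0571.

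In red light the levels were lower again and the spread was wide. The animals read 14.6, 114.1, 38.0 and 22.7 CPM at ZT2, where the high value is that of B, a library that stood apart. At ZT6 the 3 animals A, B and D read 31.8, 57.7 and 40.1 CPM, and at ZT10 the 4 animals read 39.9, 15.2, 17.7 and 4.32 CPM. The scotoperiod animals read 3.75, 13.9, 20.2 and 32.9 CPM at ZT14, 7.29, 23.8, 4.75 and 26.2 CPM at ZT18, and 12.3, 17.3, 3.10 and 18.3 CPM at ZT22. Only ZT6 against ZT18 showed groups that did not overlap. There helt differed by 1.42 and was not called (edgeR unadjusted p = 0.0183, adjusted p = 0.848), in a contrast where 0.0104% of genes were. The exact permutation p for that pair was 0.0857. The photoperiod mean was above that of the scotoperiod by 1.02 (SE 0.348, 95% interval 0.33 to 1.72), which did not pass the threshold (unadjusted p = 0.00378, adjusted p = 0.288, with 0.313% of genes called). The permutation test of helt alone gave p = 0.0226, or 0.0302 adjusted over the 4 conditions. The DESeq2 Wald test placed it just past the threshold, at 1.10 with an adjusted p of 0.0934.

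In DD helt was low through the day and highest at ZT22. The animals read 0, 24.5, 13.3 and 5.81 CPM at ZT2, where the 0 is that of A, a library that stood apart. At ZT6 animals A, B and C read 7.10, 34.5 and 1.59 CPM, and at ZT10 the 4 animals read 15.7, 13.4, 22.2 and 8.86 CPM. They read 17.2, 3.83, 12.6 and 8.92 CPM at ZT14, and 13.3, 16.5, 0 and 9.60 CPM at ZT18. At ZT22 the 3 animals A, B and D read 33.8, 32.8 and 41.3 CPM, above all animals at ZT2, ZT10, ZT14 and ZT18 of DD. The photoperiod clock hours differed from the scotoperiod ones by -0.16 (95% interval -0.99 to 0.67, adjusted p = 0.965, with 0.167% of genes called), so that a difference of the size seen in blue or green light lay outside the interval. The level at ZT22 was above that at ZT18 by 1.73 (unadjusted p = 0.0133, adjusted p = 1) and ZT10 was below ZT22 by 1.23 (unadjusted p = 0.0423, adjusted p = 0.96), neither of which passed. In the first of these 0% of genes were called by edgeR, with 426 genes at an unadjusted p under 0.05, and in the second 0.0208%. Between ZT2 and ZT22 of DD 0.0417% were called, and ZT14 and ZT22 were not tested against each other. The exact permutation p for ZT10 against ZT22 was 0.0571, the smallest that 4 against 3 allows.

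**Figure D2:**
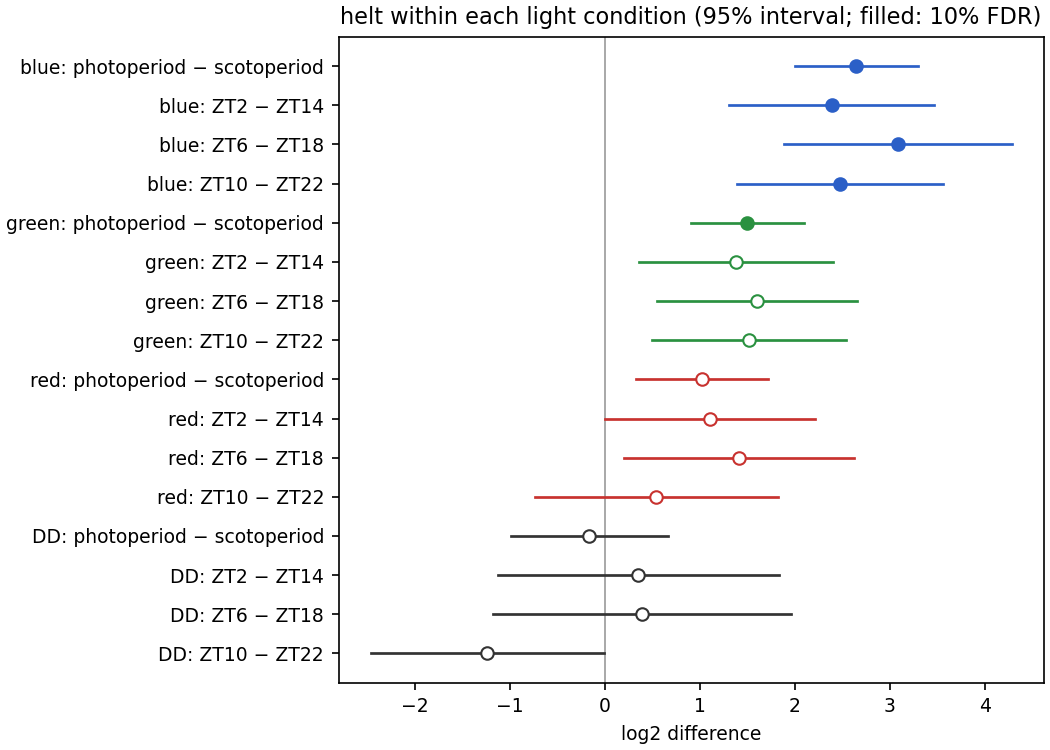
log2 difference of helt between hours of the day within each light condition, for the photoperiod minus the scotoperiod and for the 3 pairs of time points 12 h apart; points are fitted differences, lines their 95% intervals, and filled points passed 10% FDR over 9597 genes. All 4 blue differences and the green photoperiod difference of 1.50 are filled, and the DD photoperiod difference of -0.16 has an interval on both sides of 0.

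The shape of the day was tested in 2 further ways. Any difference among the 6 time points was called in blue light (adjusted p = 7.06e-07, with 0.25% of genes called) and in green light (adjusted p = 0.0733, with 0.146% called), and not in red (adjusted p = 0.693) or DD (adjusted p = 0.686). The green call was lost in 17 of the 28 fits that left out animals. A cosine with a period of 24 h had an amplitude of 1.84 on the log2 scale and a peak at ZT 6.1 h in blue (adjusted p = 9.2e-08, with 0.292% of genes called). In green the amplitude was 1.02 and the peak at 6.2 h (adjusted p = 0.0256, with 0.344% called), and this call was also lost without single animals, with an adjusted p of 0.167 without green ZT6 A and 0.11 without green ZT18 B. The amplitudes in red and DD, 0.76 and 0.46, did not pass (adjusted p = 0.521 and 0.794). The fitted peaks fall in the middle of the photoperiod, although the highest group mean in blue was that of ZT2. Of the 24 steps between neighbouring time points, 6 in each condition, the only one called was the rise from ZT22 to ZT2 in blue, across lights-on, by 2.86 (SE 0.53, adjusted p = 0.0016, with 0.0417% of genes called). That call was lost after libraries were thinned to 100000 counts (2.23, adjusted p = 0.204). The fall across lights-off in blue, ZT14 minus ZT10, was -2.01 (unadjusted p = 0.000454) and did not pass over all genes (adjusted p = 0.363). Within the blue photoperiod the neighbouring time points differed by -0.30 and -0.09, with 95% intervals of -1.16 to 0.57 and -0.996 to 0.82. The rise across lights-on in green was 1.99 (adjusted p = 0.13), and it passed with a minimum mean count of 10 (adjusted p = 0.0721), with DESeq2 (0.0501) and without the 4 libraries that stood apart (0.0639). That in red was 1.59 (adjusted p = 0.529), and in DD the same step was -1.39 (unadjusted p = 0.0235, adjusted p = 0.647).

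The light conditions were then compared over the same clock hours, in 6 pairs. The 3 comparisons with DD share the DD animals, and those between colors share animals too, so they are not independent of each other. Over the photoperiod, helt in blue light was above DD by 3.31 on the log2 scale (SE 0.333, 95% interval 2.64 to 3.97), or 9.89-fold, with an edgeR adjusted p of 4.04e-12 where 2.08% of genes were called. All 12 blue animals were above all 11 DD animals. Green was above DD by 2.36 (SE 0.338, 95% interval 1.69 to 3.03), or 5.14-fold, with an adjusted p of 3.36e-06 where 0.802% of genes were called, and 11 of the 12 green animals were above every DD animal. Red was above DD by 1.18 (SE 0.362, adjusted p = 0.0476), in a comparison where 6.13% of genes were called, so that such a call was common there. This red difference did not pass without red ZT2 B (0.95, adjusted p = 0.132), red ZT10 A (0.99, adjusted p = 0.142) or DD ZT6 A (1.08, adjusted p = 0.12), nor without the 4 libraries that stood apart (0.89, adjusted p = 0.146).

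Among the colors, blue was above red over the photoperiod by 2.13 (SE 0.295, 95% interval 1.54 to 2.72), or 4.37-fold, with an adjusted p of 7.27e-07 where 0.604% of genes were called. Of the 12 blue animals, 11 were above every red animal. Blue was above green by 0.94 (95% interval 0.42 to 1.47), just short of the threshold (adjusted p = 0.106, with 0.573% called), and passed under 6 of the alternatives, among them DESeq2 (0.99, adjusted p = 0.0454). Green was above red by 1.18 (95% interval 0.59 to 1.78, unadjusted p = 0.000172, adjusted p = 0.551) in a comparison where 0.0208% of genes were called. Without red ZT2 B that difference was 1.41 with an adjusted p of 0.024. The neighbours blue and green, and green and red, were thus not separated by the test across all genes in the 93 libraries used, while their intervals excluded 0. With all 96 libraries, blue minus green passed (0.94, adjusted p = 0.0983).

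At single time points of the photoperiod, blue was above DD by 3.602 at ZT2 (adjusted p = 1.4e-05), 3.25 at ZT6 (adjusted p = 0.00114) and 3.06 at ZT10 (adjusted p = 0.00225), with no overlap of animals at any of the 3. In these comparisons 0.396%, 0.0729% and 0.24% of genes were called. Green was above DD by 2.57 at both ZT2 (adjusted p = 0.0343) and ZT6 (adjusted p = 0.0855), and by 1.94 at ZT10 (adjusted p = 0.74), also with no overlap. There 0.75%, 0.0521% and 0% of genes were called by edgeR, with 528 genes at an unadjusted p under 0.05 at ZT10. Blue was above red by 2.04 at ZT2 (adjusted p = 0.0703) and 2.70 at ZT10 (adjusted p = 0.00829), where 0.0938% and 0.125% of genes were called, and by 1.65 at ZT6, which did not pass. Of these calls, all but that of blue against DD at ZT2 were lost when the animals of at least 1 letter were left out. Red minus DD passed at no single time point, the smallest adjusted p being 0.208 at ZT2, where DESeq2 called it (1.80, adjusted p = 0.0794).

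Over the scotoperiod no pair of conditions passed the threshold for helt. The differences from DD were 0.49 in blue (95% interval -0.32 to 1.31), 0.69 in green (-0.07 to 1.46) and -0.01 in red (-0.81 to 0.80), with adjusted p-values of 0.694, 0.499 and 1. Between colors they were -0.20 for blue minus green (-0.91 to 0.50), 0.50 for blue minus red (-0.24 to 1.25) and 0.70 for green minus red (0.01 to 1.39). The last interval lay just above 0, with an unadjusted p of 0.0415 and an adjusted p of 0.895. At ZT18 all 4 green animals were above all 4 DD animals, by 1.36 (adjusted p = 0.889), with 0% of genes called by edgeR and 540 genes at an unadjusted p under 0.05. The intervals leave room for differences of more than 2-fold. At ZT22 the order was turned around: every animal in each of the 3 colors was below every DD animal. The differences from DD were -0.65 in blue, -0.81 in green and -1.41 in red, none past the threshold (adjusted p = 0.941, 0.992 and 0.741), in comparisons where 0.0104%, 0% and 0% of genes were called by edgeR, with 518, 442 and 612 genes at an unadjusted p under 0.05. DD ZT22 holds 3 animals, of 16 to 21 helt counts each.

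**Figure D3:**
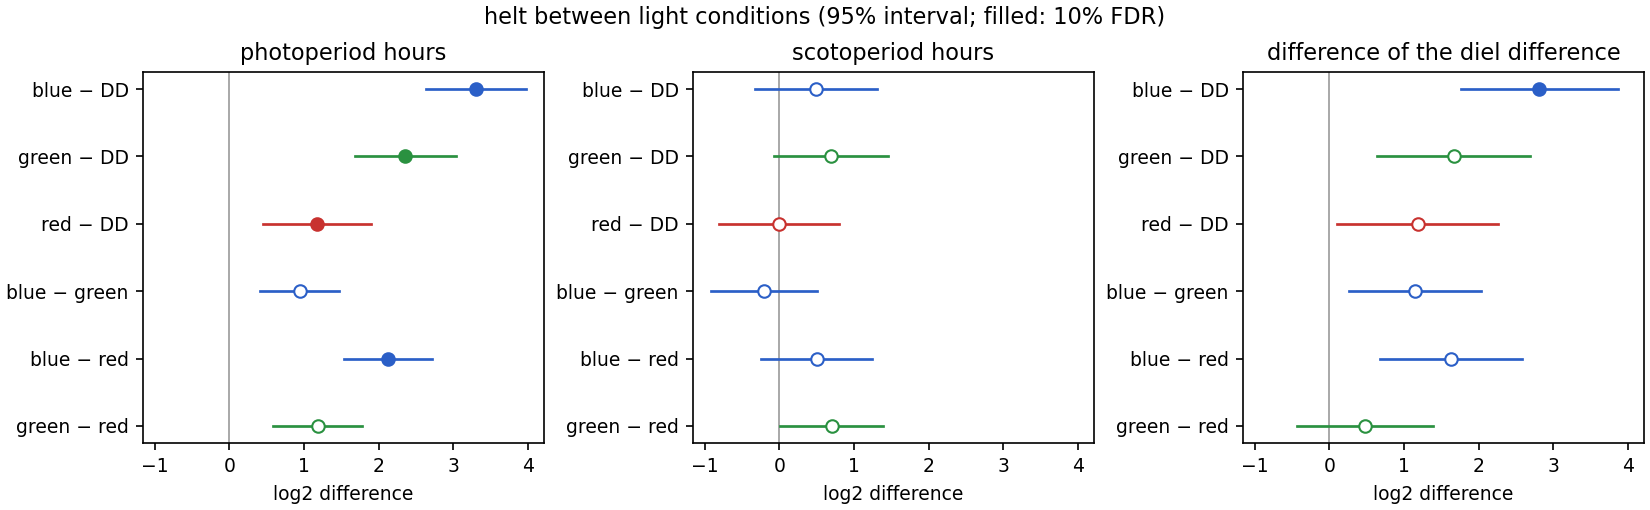
log2 difference of helt between pairs of light conditions over the photoperiod hours, over the scotoperiod hours, and for the photoperiod minus scotoperiod difference itself; points are fitted differences, lines their 95% intervals, and filled points passed 10% FDR. The 3 colors minus DD are filled over the photoperiod, at 3.31, 2.36 and 1.18, and no pair is filled over the scotoperiod.

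Whether the change between photoperiod and scotoperiod itself differed between conditions was tested as a difference of differences. It was larger in blue light than in DD by 2.81 on the log2 scale (SE 0.528, 95% interval 1.76 to 3.87, adjusted p = 0.0057), and helt was 1 of 3 genes called, 0.0313% of those tested. The call was lost when all A animals (2.48, adjusted p = 0.309) or all D animals (2.63, adjusted p = 0.329) were left out, and was kept whichever single animal was left out. For ZT10 minus ZT22 alone, a contrast chosen after its values were seen, blue exceeded DD by 3.71 (adjusted p = 0.0471), and 0.0313% of genes were called. For the photoperiod minus scotoperiod difference, green exceeded DD by 1.67 (edgeR unadjusted p = 0.00175, adjusted p = 0.583). Red exceeded DD by 1.19 (unadjusted p = 0.03065, adjusted p = 0.946). Blue exceeded green by 1.15 (unadjusted p = 0.0106, adjusted p = 0.979) and red by 1.63 (unadjusted p = 0.000969, adjusted p = 0.775). A difference between colors in the size of the daily change was therefore not established across all genes.

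helt was next set beside the 9 other candidate clock genes of the study's list, all of them tested. The study chose that list partly on these libraries, so the counts are not independent evidence. In blue light 5 of the 9 were called between photoperiod and scotoperiod, against 0.104% of all genes. Clock, the bHLH-PAS activator, was higher in the photoperiod by 1.93 (adjusted p = 0.0103), PAR-bZIPa by 2.80 (adjusted p = 1.92e-09) and PAR-bZIPd by 2.90 (adjusted p = 1.38e-10). PAR-bZIPc was lower, at -2.86 (adjusted p = 5.02e-08), as was CiPC, named for an inhibitor of CLOCK in mammals, at -2.18 (adjusted p = 0.000197). The list's median was 0.66, against 0.01 over all genes tested. In green light 2 were called, PAR-bZIPa at 1.92 and PAR-bZIPc at -1.65, against 0.479% of all genes. In red light the call was that of PAR-bZIPa, at 1.47 (adjusted p = 0.0697), against 0.313% of all genes, and in DD none of the 9 was called.

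Against DD over the photoperiod, 4 of the 9 were higher in blue light and none lower, where 2.08% of all genes were called in either direction. These were Clock by 2.72, the cryptochrome gene Cry1a by 2.41, PAR-bZIPa by 2.96 and PAR-bZIPd by 7.06 (SE 0.753). The size of the last rests on DD levels near the floor, with PAR-bZIPd means of 0.726, 3.05 and 2.13 CPM at ZT2, ZT6 and ZT10. In green light, where 0.802% of all genes were called, Cry1a (1.39) and PAR-bZIPa (2.20) were higher, and in red light none of the list was called. There Clock had 1.09 (unadjusted p = 0.0221, adjusted p = 0.187), near the 1.18 of helt, and helt and the list were not tested against each other. Over the scotoperiod, where helt did not pass, 4 of the list were higher in blue than in DD, with 0.938% of all genes called: Cry1a, PAR-bZIPc, PAR-bZIPd and CiPC. The difference of differences between blue and DD was called for PAR-bZIPc alone among the 9, with the photoperiod side lower.

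**Figure D4:**
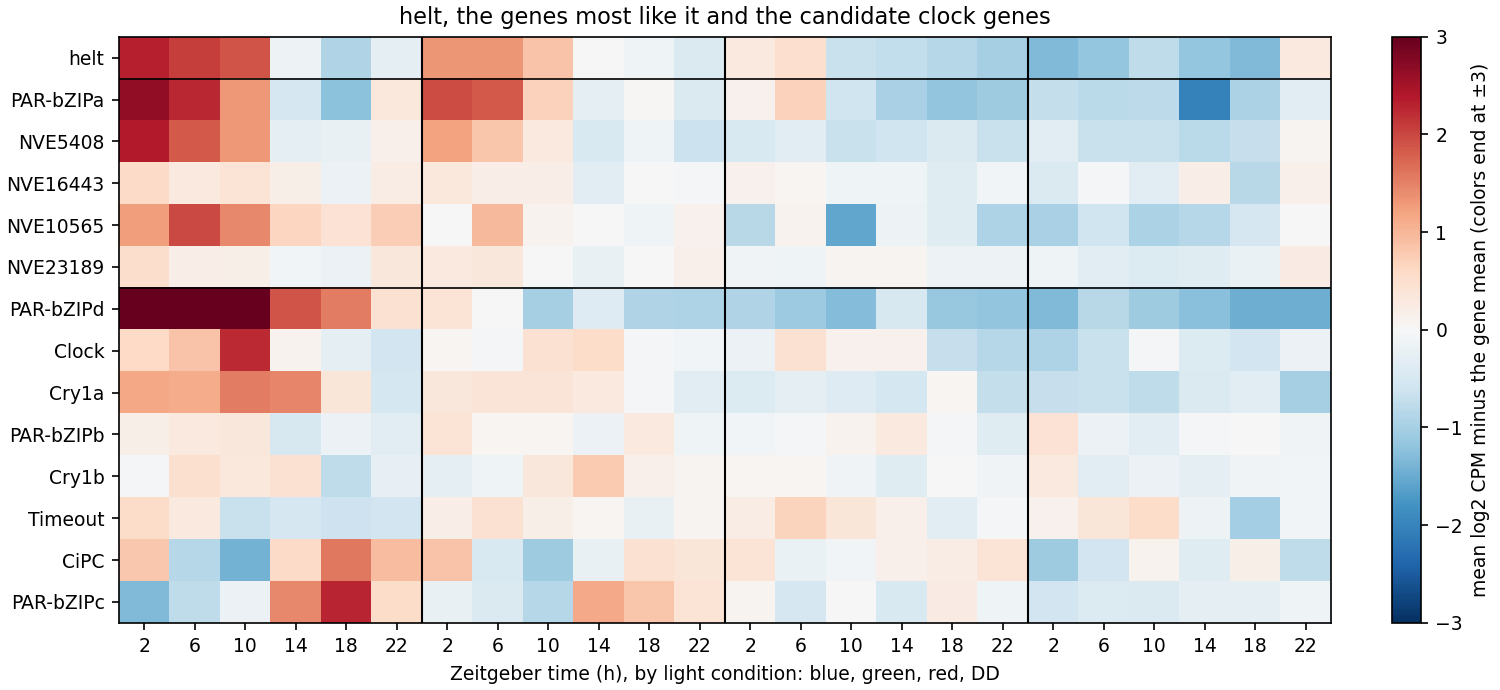
Mean log2 CPM of each of 24 groups minus the mean of those groups, for helt (top), the 5 genes most like it and the 8 other candidate clock genes (bottom); columns are Zeitgeber times within blue, green, red and DD, and colors end at 3 on either side of 0. helt, PAR-bZIPa and NVE5408 are high at ZT2 to ZT10 of blue and green, and PAR-bZIPc and CiPC are high in the blue scotoperiod.

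The genes whose pattern was most like that of helt were ranked by Pearson correlation over the 24 group means of log2 CPM, among 4331 other genes whose mean count reached 10. The points share their libraries within a group and the same 4 conditions, so the correlations are descriptions. The median over all these genes was -0.036. PAR-bZIPa (NVE14677) came first with r = 0.943 and NVE5408, annotated in the study's tables as a hepatic leukemia factor, a PAR-bZIP name, came next with r = 0.913. After them came NVE16443, without an annotation in the sources used here (0.767), NVE10565, annotated as a phospholipase A2 of group XV (0.767), and NVE23189, annotated as iron zinc purple acid phosphatase-like (0.724). Clock, with a mean count of 3.43, was outside this ranking; among the 9596 other genes with a mean count of 3 or more it had rank 5, at 0.749, ahead of NVE23189. The lowest were NVE10979 at -0.746, NVE14561 at -0.721 and NVE2468 at -0.69.

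PAR-bZIPa and NVE5408 also ranked first and second over the 93 single libraries, with r = 0.808 and 0.755, and over the 18 groups without blue light, with r = 0.92 and 0.85. Within groups, after group means were taken out, the same correlations were 0.341 and 0.224, and the highest of any of 4331 genes was 0.5. Counting noise at these depths lowers such correlations, so they cannot show how far animals of a group vary together. The likeness described here is that between groups. In blue light PAR-bZIPa had mean levels of 186.4, 139.7 and 87.2 CPM at ZT2, ZT6 and ZT10 and of 17.47, 10.4 and 37.3 CPM at ZT14, ZT18 and ZT22. In DD it read 2.32 CPM at ZT14 and between 10.9 and 18.9 CPM at the other times. NVE5408 had 588.3 CPM at blue ZT2 and 95.4 CPM at blue ZT18, and in DD it was highest at ZT22, at 118.2 CPM, as helt was.

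**Figure D5:**
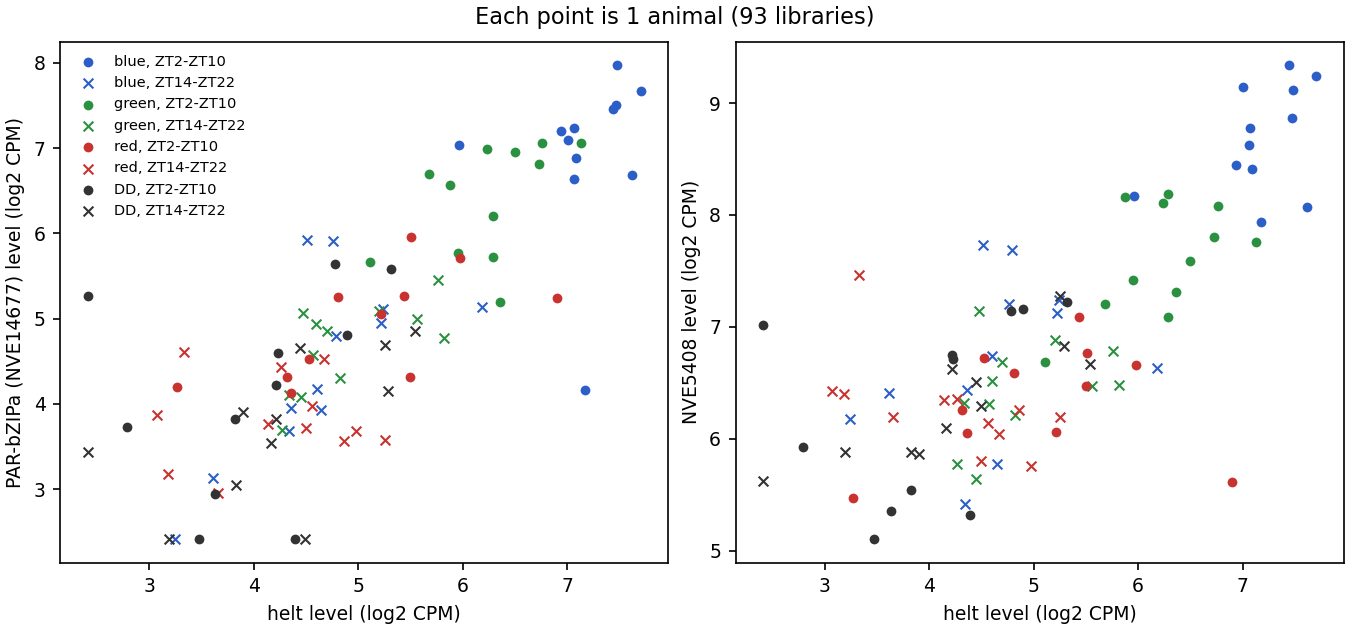
Level of PAR-bZIPa (left) and of NVE5408 (right) against that of helt, both in log2 CPM, with 1 point for each of 93 animals; circles are ZT2 to ZT10, crosses ZT14 to ZT22, and colors the light conditions. Over all animals r is 0.808 on the left and 0.755 on the right, and the blue photoperiod animals lie at the upper right apart from single points.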

How the data were processed

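Tag-based RNA sequencing, which samples 1 fragment close to each transcript's 3′ end, was done by the authors on 96 whole animals. The authors removed PCR duplicates, used the FastX-toolkit for trimming and quality filtering, aligned with Bowtie2 to the Vienna transcriptome and deposited counts of reads that mapped to a single gene, without normalization. Reads of near-identical copies are lost by such counting. Zeitgeber times follow the study's methods. Every column was matched to a sample by its name.

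Libraries under 100000 counts were left out. Counts were fitted with edgeR 4.0.16 (limma 3.58.1, R 4.3.3; TMM) in 1 fit of 24 groups, for the 9597 genes whose mean count reached 3. Two-sided quasi-likelihood F tests were adjusted by Benjamini-Hochberg over all genes of each contrast, with a threshold of 10% FDR. Standard errors and 95% intervals came from the fitted weights and the quasi-dispersion. Permutation tests used log2 CPM with a prior count of 2, with 100000 resamples or exactly. The fit was also run on simulated counts with known changes in blue light and the same dispersion for every gene. Its outcome is not used here as evidence about helt. Intervals cover these animals only, and adjusted p-values are not corrected over contrasts.

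The gene, the clock list and the tests were chosen with earlier results of these data known. Genes named are helt, the clock list, and the 5 most and 3 least correlated genes. The comparison of ZT10 minus ZT22 between a color and DD, and leaving out 4 libraries, were added after seeing the values. Alternatives were RLE, DESeq2 1.42.0, other count filters and library minimums, robust dispersions, separate fits, a replicate block, thinning to 100000 counts, and leaving out replicates. Fits without all animals of a letter were estimated anew. Those without a single animal kept the dispersion trend of all libraries used, so they also differ from the main fit in that step. No sequence or coordinates of NVE8679 are given here. Figures were drawn with matplotlib 3.10.9.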

Additional observations from a re-analysis of the deposited data

Results flagged for a closer look

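The helt level of blue ZT14 replicate C, 67.4 CPM, stood far from the other 3 animals of its group, which read 14.9 to 22.3 CPM. Those 3 values rest on 6, 2 and 2 counts, against 18 counts for C. C was the only such animal in the 21 groups of 4 examined, and chance alone sets apart about 1 group in 20. Its part in the blue contrasts was measured by leaving it out, after which the photoperiod minus scotoperiod difference in blue light was 2.97 (edgeR adjusted p = 1.38e-09).

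The photoperiod minus scotoperiod difference of helt was larger in blue light than in DD by 2.81 on the log2 scale (edgeR adjusted p = 0.0057). The difference between ZT10 and ZT22 alone, a comparison chosen after its values were seen, was also larger in blue than in DD, by 3.71 (SE 0.824, adjusted p = 0.0471). In blue all 4 animals at ZT10 were above all 4 at ZT22, and in DD all 4 were below all 3. Its adjusted p was 0.159 in a fit of blue and DD alone, 0.967 after thinning, and 0.172 to 0.53 when all animals of 1 letter were left out. The same comparison gave 2.76 for green (adjusted p = 1) and 1.78 for red (adjusted p = 1).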

How the results depend on the processing

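No called result for helt changed direction under any alternative. Of 36 results that answer a comparison, 25 kept their side of the threshold throughout, but only 14 of the 36 were called. The blue photoperiod minus scotoperiod call was kept throughout (2.62 to 2.68, and 2.55 to 2.97 with animals left out). So were any time difference in blue, the blue cosine, and the photoperiod differences of blue from DD, green from DD and blue from red. Every other of the 14 calls was lost under some alternative, and the rest of the 25 were results not called. After thinning to 100000 counts these calls were lost: green photoperiod minus scotoperiod (1.22), blue ZT2 minus ZT14 (2.24), blue ZT10 minus ZT22 (2.04), any time difference in green (adjusted p = 0.877), the green cosine (amplitude 0.89) and the difference of differences between blue and DD (3.03, adjusted p = 0.84), as well as the blue rise from ZT22 to ZT2 (2.23), green minus DD at ZT6 (adjusted p = 0.354) and blue minus red at ZT2 (0.511); thinning leaves fewer counts. Without a count filter, any time difference in green had an adjusted p of 0.113 and red minus DD was 1.14 (adjusted p = 0.117). In separate fits the green test gave 0.102. Without the 4 libraries that stood apart, blue ZT2 minus ZT14 was 2.33 (adjusted p = 0.102), red minus DD 0.89, and green minus red 1.41, which then passed (adjusted p = 0.0246). DESeq2 also called red photoperiod minus scotoperiod (1.10), red minus DD at ZT2 (1.80), the green rise from ZT22 to ZT2 (2.03) and green minus red (1.15, adjusted p = 0.0923). Blue minus green passed with RLE (0.98), a minimum mean count of 10 (0.99), all 96 libraries (0.94), thinning (1.21), a fit of the pair alone (0.96) and DESeq2 (0.99). The cause of these changes was not tested.

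With replicates left out, values ranged from 1.32 to 1.72 for green photoperiod minus scotoperiod, 2.05 to 3.34, 2.78 to 3.88 and 2.17 to 2.74 for the 3 blue pairs of time points, 0.04 to 0.774 for the adjusted p of any time difference in green, 0.91 to 1.20 for the green cosine, 0.95 to 1.76 for red minus DD, 0.70 to 1.22 for blue minus green, 0.94 to 1.66 for green minus red, and 2.48 to 3.73 for the difference of differences between blue and DD. The letters A to D were not taken to pair animals: no source says that they mark a shared batch, and deviations of same-lettered libraries had correlations from -0.415 to 0.559 with a median of 0.0063, against -0.0026 for different letters. As a hint of some shared deviation, 35 of 93 libraries were closest to their own letter. With the letter as a replicate block the blue difference was 2.64 and the green one 1.53, and no call above changed. Depth limits the scotoperiod and DD values most, where many animals hold few counts.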
